A study of Mus musculus with 6 samples.

Results

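The samples described here are the 2 control arrays of a series of 6, chosen by their titles: untreated E14Tg2a mouse embryonic stem (ES) cells. Every group of the series grew in serum-free N2B27 medium to which 20 ng/ml of BMP4 and 1000 U/ml of LIF had been added. The other 4 arrays, not used here, came from cells treated for 2 h with 10 ng/ml of activin or for 24 h with 5 µM of SB431542. E14Tg2a is an established line derived from a mouse blastocyst, and all 6 arrays are of that line. The labels do not say whether the control arrays came from separate cultures, so the spread between them may be technical. The question is which receptors, ligands, transcription factors and lineage genes give a signal in these cells before any treatment.

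Mouse ES cells keep the identity of the early epiblast while they self-renew. LIF acts through the receptor chains Lifr and gp130 (Il6st) on Stat3, and BMP4 acts through Smad1, Smad5 and Smad9 on the Id genes, which restrain differentiation. Nodal and activin act through a separate set of type I receptors on Smad2 and Smad3, and FGF4 made by the cells themselves acts through ERK signalling to make them ready to leave the pluripotent state.

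A gene is represented by its brightest probe set, the one with the highest mean over the control arrays, and 18193 genes had one. Values are log2 of the deposited intensity, given for control replicate 1 and then control replicate 2. The arrays carry 27 probe sets for the Bacillus genes dap, lys, phe, thr and trp, which mouse cells do not have. Their intensities ran from 8 to 32 on replicate 1 and from 10 to 32 on replicate 2, with medians of 12 and 13. The highest of them, at a log2 of 5.00 on both arrays, set the limit of the bacterial range. That limit rests on 1 probe set for phe, and the next highest stood at an intensity of 20 and 17.

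A gene was called above the range when it passed the limit on both arrays, within the range when it passed on neither, and high when it also reached the 90th percentile of all 45037 probe sets on both arrays. Those percentiles lay at 9.87 and 9.78. Genes above the range but not high are called intermediate. Of the 18193 genes, 11920 were above the range (65.5%), of which 2734 were high (15% of all genes). A further 5012 were within the range (27.5%), and 1261 passed the limit on 1 array only. At 2 times the limit, 9901 genes were still above it on both arrays (54.4%). Where a list's count is given alone, these shares of all genes (65.5%, 15% and 54.4%) are its background. Probes differ in how strongly they bind, so a class orders signals and not amounts of transcript, and in a bulk sample fewer cells of a type and less RNA per cell cannot be told apart.

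**Figure D1:**
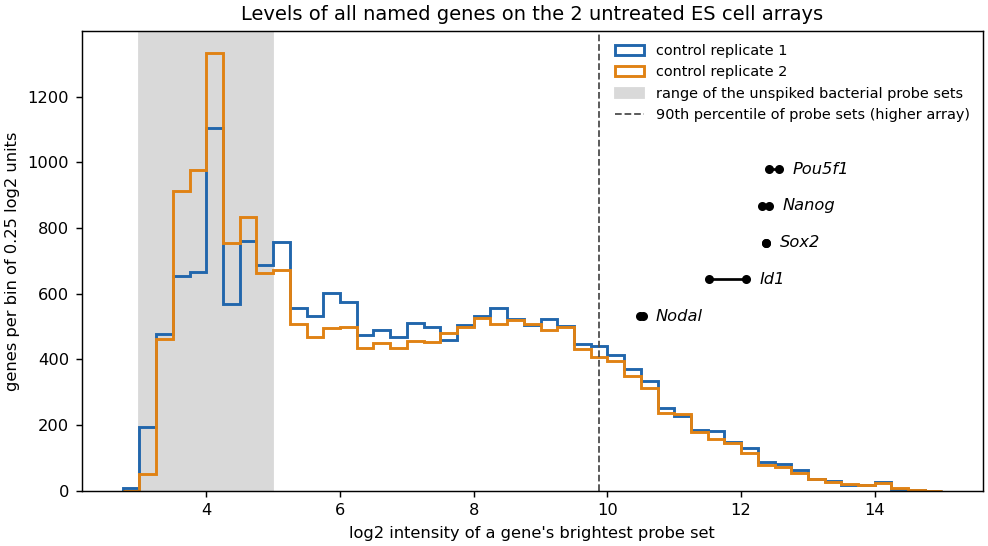
Distribution of log2 intensities of 18193 genes (brightest probe set of each) on the 2 control arrays, in bins of 0.25 log2 units, with the bacterial range shaded and the higher of the 2 arrays' 90th percentiles dashed. Black points joined by lines give both values of the 5 marker genes at arbitrary heights, and each lies to the right of the dashed line.

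The 5 genes taken as markers of these cells were all high. Pou5f1, which encodes the pluripotency factor Oct4, stood at 12.57 and 12.41 (mean 12.49 ± 0.11, SD, n = 2). Nanog stood at 12.42 and 12.32, and Sox2, the partner of Oct4 on DNA, at 12.38 and 12.37. Id1, the best known target of BMP signalling, stood at 12.07 and 11.53, and the ligand Nodal at 10.53 and 10.49. As deposited, Id1 had the widest gap of the 5 between the arrays (mean 11.80 ± 0.38, SD, n = 2), an order that changed with the scaling of the arrays, as given with the spread at the end. Pou5f1, Nanog and Sox2, which define ES cells, were thus high on both arrays; they were picked with these data known, so this is no independent check of the label.

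Core pluripotency factors were above the range for 12 of 12 genes, and 11 were high, against 15% of all genes. Zfp42, the zinc finger protein Rex1, stood at 12.86 and 12.72. Tdgf1, the Nodal co-receptor Cripto, stood at 12.45 and 12.39, and Utf1, a chromatin-bound factor, at 11.79 and 11.79. Dppa2 was at 11.87 and 11.64 and its partner Dppa4 at 11.45 and 11.35. Fgf4, a secreted growth factor, was at 10.79 and 10.82. Foxd3, a forkhead factor, was the member that was not high, at 8.26 and 8.00.

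Sall4 and Lin28a were the core factors with the widest gaps between the control arrays. Sall4, a zinc finger factor, read 12.46 and 11.64, and its other probe set read 9.69 and 9.12, also higher on replicate 1. Lin28a, an RNA-binding protein that blocks let-7 maturation, read 11.75 and 12.41 with its brightest probe set and 10.69 and 9.59 with its other one. The pair of Lin28a probe sets thus disagreed on which array was higher, and no direction is given for that gene.

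Naive pluripotency factors, which mark the state of the preimplantation epiblast, were above the range for 23 of 23 measured genes, and 13 were high. Dppa5a, an RNA-binding protein of pluripotent cells, stood at 14.06 and 14.14. Klf2 stood at 11.73 and 11.83, Klf4 at 10.83 and 10.81, and the nuclear receptor Esrrb at 10.60 and 10.59. Tfcp2l1, a factor downstream of LIF, was at 10.69 and 10.66, and the nuclear receptor Nr0b1 at 11.10 and 11.00. Tbx3 was intermediate, at 9.45 and 9.13.

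Genes of the primed, later epiblast were also mostly above the range, 18 of 19, and 5 of the 19 were high (26.3%, against 15% of all genes). Those were Dnmt3b and Dnmt3a, which methylate DNA de novo, the ETS factor Etv5, the junction protein Cldn6 and the keratin Krt18. Dnmt3b stood at 12.41 and 12.54, and Etv5 at 11.92 and 11.87. Pou3f1 (Oct6) was intermediate at 8.95 and 8.95, as was Fgf15 at 7.43 and 7.27. Fgf5, the classical ligand of the primed epiblast, passed the limit on 1 array only, at 4.86 and 5.39; it falls outside the naming rule and was chosen after its values were seen, as was Otx2, at 7.26 and 7.46. The primed list had a median of 8.40, against 10.51 for the naive list, 12.07 for the core list and 6.61 for all genes.

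Of 16 surface and enzyme markers of ES cells, 16 were above the range and 7 high. Cdh1 (E-cadherin) stood at 12.24 and 12.25, the gap junction protein Gja1 at 12.22 and 12.14, and Epcam at 12.02 and 11.85. The list drawn up for the rare cells that resemble the embryo's 2-cell stage was smaller, with 4 of 7 genes above the range and 0 high. Whether each member is particular to such cells was not tested. The share above the range was 57.1%, against 65.5% of all genes. Zfp809 (8.56 and 8.44), Usp17la (8.43 and 8.39), Zfp352 (6.23 and 6.09) and Arg2 (5.86 and 5.13) were intermediate. Tcstv1 read 3.70 and 4.70, Tcstv3 3.81 and 3.46, and Tdpoz1 4.46 and 3.70, all within the range.

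The start sites of high and within-range genes were compared in their content of CpG dinucleotides, since mammalian promoters fall into CpG-rich and CpG-poor kinds. RefSeq windows of 300 bases (GRCm38.p6), from 250 before to 50 after a gene's start, were matched to 13273 of 16060 protein-coding genes (82.65%). Sox2 and Nanog are shown as high genes at CpG-rich and CpG-poor starts, and Olig2, a factor of oligodendrocyte and motor neuron precursors, and Alb, the albumin gene of liver, as within-range genes of both kinds. These examples were picked with their values in view. The windows are printed 5′ to 3′ on the gene's strand, with each CpG in capitals. The motif CG reads the same on both strands.
Sox2: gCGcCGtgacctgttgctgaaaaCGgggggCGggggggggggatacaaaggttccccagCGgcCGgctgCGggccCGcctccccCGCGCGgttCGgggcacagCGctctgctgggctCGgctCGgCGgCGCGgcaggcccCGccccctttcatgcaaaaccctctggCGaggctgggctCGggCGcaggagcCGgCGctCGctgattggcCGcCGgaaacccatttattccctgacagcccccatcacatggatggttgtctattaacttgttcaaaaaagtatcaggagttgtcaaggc
Nanog: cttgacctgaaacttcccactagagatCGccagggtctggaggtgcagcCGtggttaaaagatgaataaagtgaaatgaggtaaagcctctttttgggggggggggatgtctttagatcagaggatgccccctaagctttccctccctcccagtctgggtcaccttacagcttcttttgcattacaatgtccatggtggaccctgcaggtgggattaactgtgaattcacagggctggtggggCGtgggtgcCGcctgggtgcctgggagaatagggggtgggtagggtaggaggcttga
Olig2: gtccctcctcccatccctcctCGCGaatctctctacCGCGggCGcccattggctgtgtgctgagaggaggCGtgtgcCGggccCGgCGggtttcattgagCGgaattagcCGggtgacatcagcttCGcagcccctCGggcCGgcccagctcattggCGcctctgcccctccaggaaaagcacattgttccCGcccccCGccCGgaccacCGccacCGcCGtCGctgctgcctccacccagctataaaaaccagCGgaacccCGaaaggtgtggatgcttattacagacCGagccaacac
Alb: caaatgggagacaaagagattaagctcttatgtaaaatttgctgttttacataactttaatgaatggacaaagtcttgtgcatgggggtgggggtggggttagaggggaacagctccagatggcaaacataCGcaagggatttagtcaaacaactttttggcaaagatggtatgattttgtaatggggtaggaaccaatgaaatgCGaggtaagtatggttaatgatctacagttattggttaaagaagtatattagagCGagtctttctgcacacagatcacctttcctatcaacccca

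The Sox2 window, chr3:34649745-34650044 (plus strand), holds 27 CpGs, with an observed over expected ratio of 0.82. The Nanog window, chr6:122707239-122707538 (plus strand), holds 4, with a ratio of 0.19, although the mean levels of both genes were 12.37. The Olig2 window, chr16:91225300-91225599 (plus strand), holds 25 CpGs, with a ratio of 0.82, and its gene read 3.32 and 3.32. The Alb window, chr5:90460620-90460919 (plus strand), holds 3, with a ratio of 0.27, and its gene read 5.00 and 4.32. A CpG-rich start therefore stood at a high and at a within-range gene, and so did a CpG-poor start.

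Over all matched genes the share of CpG-rich windows was larger in the brighter classes. A window was called CpG-rich when its observed over expected ratio was at least 0.6 and its GC content at least 50%. This held for 81.2% of 2261 high genes, 66.4% of 7124 intermediate genes, 32.7% of 865 genes over the limit on 1 array and 21.1% of 3023 genes within the range. The median number of CpGs was 23, 20, 9 and 5 in these classes, and 18 over all matched genes. Among the transcription factors that matched, 65.7% of the 172 above the range and 50% of the 82 within the range were CpG-rich. Among ligands these shares were 56.9% of 72 and 30.4% of 46, and among receptors 63.75% of 80 and 35.5% of 31. Of the small lists, neuroectoderm genes followed this order, at 100% of the 9 above the range and 40% of the 5 within it. Adult tissue genes did so too, at 20% of 5 and 0% of 6. Other small lists did not. CpG-rich windows stood at 14.3% of the 7 primitive streak genes above the range and 50% of the 6 within it, and at 20.0% of the 5 mesoderm genes above it and 25% of the 4 within it. Of the 9 core pluripotency factors that matched, all above the range, 44.4% were CpG-rich. Of all 27025 genes with a window in the RefSeq table, 34.1% had a CpG-rich one. These are descriptions over genes, which are not independent replicates.

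**Figure D2:**
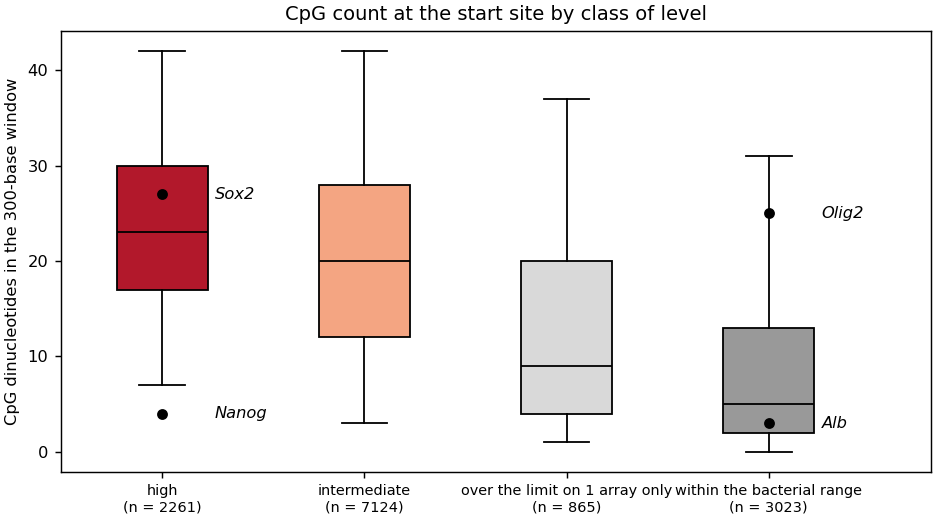
Number of CpG dinucleotides in the 300-base window at the start of 13273 genes, by class of level on the control arrays. Boxes span the quartiles, the line is the median (23, 20, 9 and 5 from left to right), whiskers reach the 5th and 95th percentiles, and black points mark the 4 genes whose windows are printed.

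BMP ligands were measured for 14 genes, of which 8 were above the range (57.1%, near the 65.5% of all genes). Of the 14, 0 were high, against 15% of all genes. Bmp4, which was also added to the medium as protein, read 9.50 and 9.43. Bmp1, a metalloprotease named for its copurification and not a BMP-type ligand, read 8.51 and 8.33. Bmp8b read 6.91 and 6.64, Bmp2 6.85 and 5.95, and Bmp7 6.09 and 5.93. Gdf2 (BMP9) read 7.15 and 6.99, Amh 6.46 and 5.55, and Bmp10 5.46 and 5.67. Over 2 times the limit 4 of the 14 were left (28.6%, against 54.4% of all genes), Bmp1 among them. Bmp5 (4.25 and 4.00), Bmp6 (4.58 and 4.52) and Bmp15 (3.91 and 4.00) were within the range.

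BMP receptors and co-receptors were above the range for 11 of 13 genes (84.6%, against 65.5% of all genes). Bmpr1a, a type I receptor for BMP4, was the high member at 10.02 and 9.94, while the other BMP4 type I receptor, Bmpr1b, was within the range at 4.86 and 4.64. The type II receptors Bmpr2 (8.77 and 8.26), Acvr2b (8.26 and 7.92) and Acvr2a (8.12 and 7.91) were intermediate. The type I receptor Acvr1 read 7.31 and 7.25, and the co-receptor Eng 8.11 and 8.07. Neo1, which binds the repulsive guidance molecules, read 7.94 and 7.66. Amhr2, the receptor for anti-Müllerian hormone, read 7.74 and 7.44. The co-receptors Rgmb (7.58 and 7.19), Rgma (5.83 and 5.55) and Hjv (5.46 and 5.13) followed. Acvrl1, the receptor for BMP9 in endothelium, was within the range at 4.17 and 4.09.

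Transcripts of the BMP-type Smads were above the range for all 8 genes of their list. Smad4, the partner shared with the Nodal pathway, was high at 11.49 and 11.41. Of the receptor-regulated Smads, Smad1 read 9.04 and 9.02, Smad5 7.90 and 7.77, and Smad9 5.17 and 5.09, just over the limit. The inhibitory Smads, Smad7 (9.18 and 9.28) and Smad6 (7.65 and 7.34), and the ubiquitin ligases Smurf2 (9.42 and 9.34) and Smurf1 (7.80 and 7.73) were intermediate.

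Of 18 BMP target genes, 15 were above the range and 4 high: Id1, Id3 (10.98 and 10.99), Klf4 and Id2 (10.17 and 10.19). These counts are 83.3% and 22.2%, against 65.5% and 15% of all genes. Id4 was intermediate at 8.53 and 8.36. The homeobox genes Msx1 (7.79 and 7.80) and Msx2 (8.73 and 8.44) and the factor Gata2 (8.02 and 7.92) were intermediate, and Dlx5 was within the range at 4.75 and 4.32. BMP antagonists were above the range for 10 of 17 genes (58.8%, against 65.5% of all genes), 0 of them high. Fstl1 (9.80 and 9.85), Bambi (8.88 and 8.97), a pseudoreceptor, and Twsg1 (8.52 and 8.45) had the brightest signals of that list, and Chrdl1 (4.17 and 4.46), Chrdl2 (4.91 and 5.00) and Cer1 (4.70 and 4.95) were within the range.

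**Figure D3:**
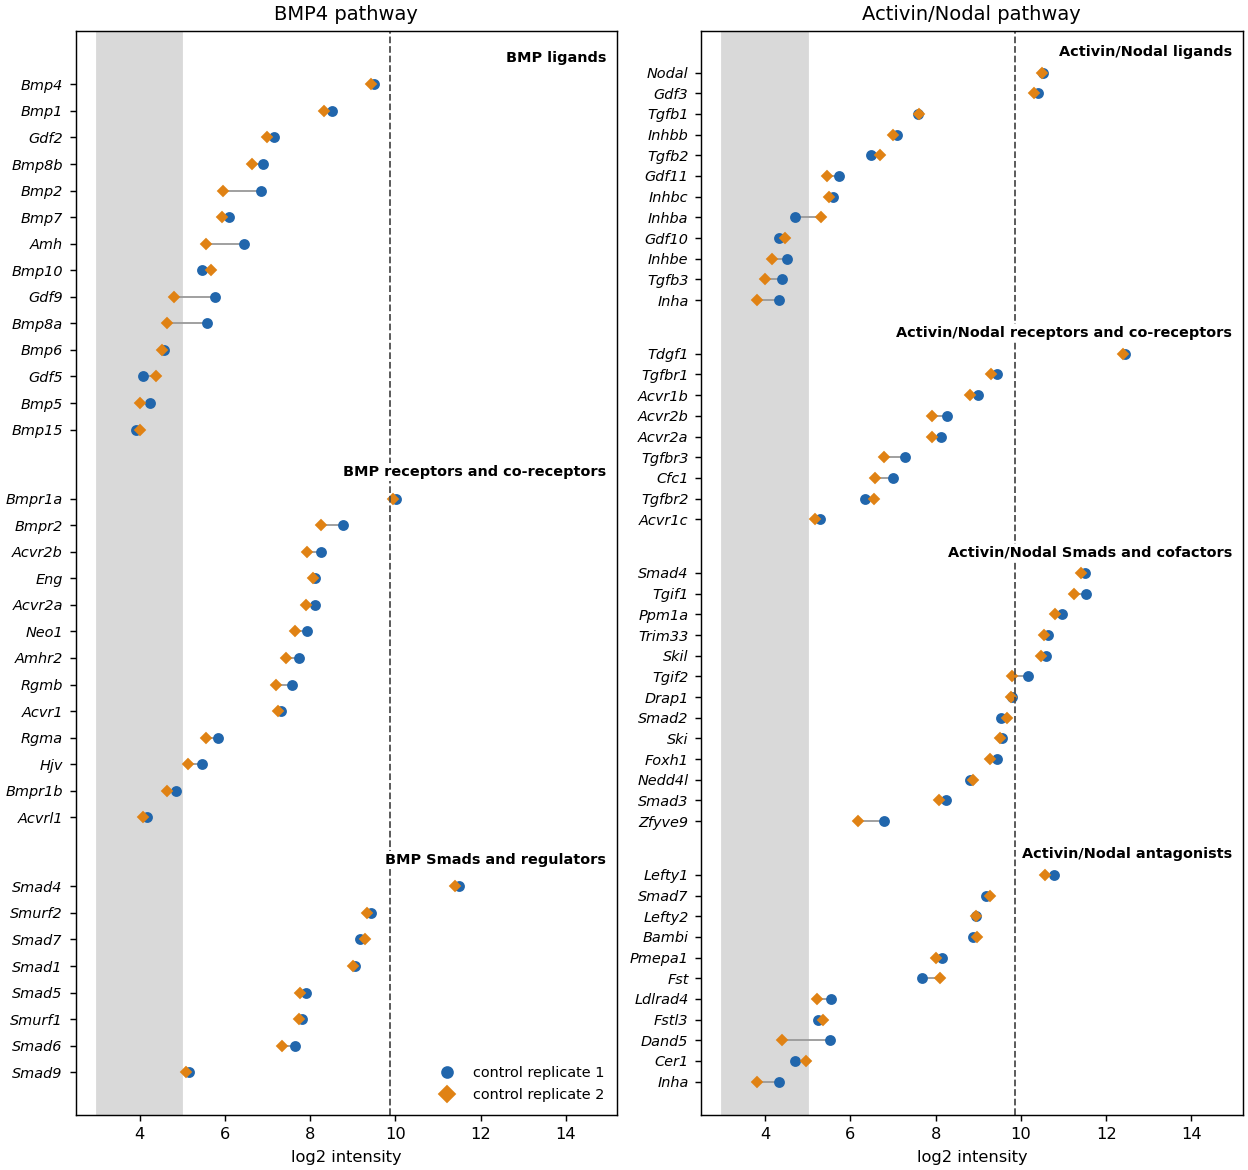
Log2 intensity of members of the BMP4 (left) and Activin/Nodal (right) pathways on control replicate 1 (circles) and control replicate 2 (diamonds), ordered within each list by their mean. The shaded band is the bacterial range and the dashed line is the higher of the 2 arrays' 90th percentiles; receptors and Smads lie to the right of the band, except Bmpr1b and Acvrl1.

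Ligands of the Activin/Nodal branch were above the range for 7 of 12 genes (58.3%) and high for 2 (16.7%), near the 65.5% and 15% of all genes. Over 2 times the limit 5 were left (41.7%, against 54.4% of all genes). The high ones were Nodal, given above, and Gdf3, a related ligand of pluripotent cells, at 10.40 and 10.30. Tgfb1 read 7.59 and 7.60, Tgfb2 6.49 and 6.69, and Gdf11 5.73 and 5.46. Among the inhibin chains, Inhbb read 7.10 and 7.00 and Inhbc 5.58 and 5.49. Inha (4.32 and 3.81), which is also in the list of antagonists, and Inhbe (4.52 and 4.17) were within the range. Inhba, the chain of activin A, passed the limit on 1 array only, at 4.70 and 5.32; it was named after its values were seen.

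All 9 receptors and co-receptors of this branch were above the range by their brightest probe set. Only 1 of 3 probe sets was above it for Tgfbr2 and for Acvr1c, and 1 of 2 for Tgfbr3. Tdgf1 was the high member. Tgfbr1 (ALK5) read 9.43 and 9.31, Acvr1b (ALK4), the type I receptor for Nodal and activin, 8.99 and 8.80, and Acvr1c (ALK7) 5.29 and 5.17, close to the limit. Tgfbr2, the type II receptor for TGF-beta, read 6.34 and 6.55, Tgfbr3 7.28 and 6.78, and Cfc1, the other co-receptor of the Cripto family, 7.01 and 6.57. Acvr2a and Acvr2b serve both branches and are given above. Of 6 proprotein convertases, which cut Nodal and related precursors, 5 were above the range, with Pcsk6 (8.38 and 8.42) and Furin (7.79 and 7.69) among them. Pcsk5 was within the range, at 4.91 and 4.64.

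Smads and nuclear cofactors were above the range for 13 of 13 genes, and 6 were high. Besides Smad4 these were the co-repressors Tgif1 (11.53 and 11.25), Tgif2 (10.16 and 9.80) and Skil (10.60 and 10.46), the phosphatase Ppm1a (10.96 and 10.81) and the Smad ubiquitin ligase Trim33 (10.64 and 10.55). Smad2 read 9.54 and 9.67 and Smad3 8.25 and 8.09. Foxh1, which brings Smad2 and Smad3 to DNA, read 9.44 and 9.28. Drap1 (9.80 and 9.77), Ski (9.56 and 9.51), Nedd4l (8.80 and 8.87) and the endosomal anchor Zfyve9 (6.78 and 6.17) were intermediate as well.

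Of 15 Activin/Nodal target genes, 12 were above the range and 4 were high: Tdgf1, Lefty1, Skil and Nodal. These counts are 80% and 26.7%, against 65.5% and 15% of all genes. Lefty1, a secreted Nodal inhibitor, read 10.78 and 10.57, and Lefty2 8.96 and 8.95. The mesendoderm factors Mixl1 (8.13 and 8.01) and Eomes (7.84 and 7.90) were intermediate, and Gsc, a homeobox gene of the organizer, was within the range at 4.25 and 3.70. Both Lefty genes, Nodal and Gdf3 thus gave signal without added activin, while Cer1 and Gsc did not pass the limit. Of 11 antagonists 8 were above the range, with Lefty1 high and Fst, which binds activin, at 7.67 and 8.09.

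LIF pathway components were above the range for 21 of 22 genes (95.5%, against 65.5% of all genes), and 3 were high (13.6%, against 15%). Lifr read 9.40 and 9.38, Il6st 9.37 and 9.53, and Stat3, which was high, 10.24 and 10.14. Of the 4 Stat3 probe sets 2 were above the range. The adaptor Gab1 (11.60 and 11.71) and the phosphatase Ptpn2 (11.42 and 11.32) were high, and Ptpn11 (9.96 and 9.77) and Grb2 (9.66 and 9.57) were just short of it. Lif itself read 5.83 and 5.73, and the related ligands Ctf1 (7.40 and 7.29), Osm (6.77 and 6.74) and Clcf1 (6.34 and 5.75) were above the range. Of the receptor chains for other cytokines of this family, Osmr was within the range at 4.25 and 4.64, Il6ra was close to the limit at 5.36 and 5.04, and Cntfr read 6.94 and 5.67, a gap of 1.27 between the arrays. All 16 LIF/Stat3 target genes were above the range and 8 were high, among them the kinase genes Sgk1 (11.84 and 11.67) and Pim3 (11.43 and 11.44). Socs3, the feedback inhibitor of the receptor, was high as well.

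Genes of the FGF family, counted as ligands by name, showed a narrow pattern, with 6 of 22 above the range (27.3%, against 65.5% of all genes). Whether each member acts as a secreted ligand was not examined. Fgf4 was the high one. Fgf13 (8.68 and 8.57), Fgf17 (8.01 and 7.61) and Fgf15 followed as intermediate, and 11 were within the range, among them Fgf1 (4.75 and 4.32), Fgf10 (4.64 and 4.09) and Fgf12 (4.52 and 3.81). The count did not change at 2 times the limit. Fgf4 has 4 probe sets, of which 3 were above the range and the last read 3.81 and 4.17.

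The FGF receptor genes were above the range in all 5 cases. Fgfr1 read 9.23 and 9.27, Fgfrl1, which lacks the kinase, 8.64 and 8.34, Fgfr2 7.50 and 7.55, and Fgfr3 6.78 and 6.52. The Klotho co-receptors of the endocrine FGFs, Kl (4.09 and 4.00) and Klb (4.39 and 4.39), were within the range. In the ERK cascade and its feedback genes, 19 of 20 were above the range (95%, against 65.5% of all genes) and 7 high (35%, against 15%). Etv5, the GTPase Nras (10.69 and 10.48), the inhibitor Spred2 (10.49 and 10.68) and the ERK phosphatase Dusp6 (10.65 and 10.49) were among the high ones. Spry3 was within the range at 3.91 and 3.58.

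WNT ligands were above the range for 12 of 19 genes (63.2%, near the 65.5% of all genes), 0 of them high. Over 2 times the limit 4 were left (21.1%, against 54.4% of all genes). Wnt4 (8.48 and 8.39), Wnt7b (7.75 and 7.43), Wnt7a (6.87 and 6.21) and Wnt9a (6.57 and 6.17) had the brightest signals, and Wnt1 (4.70 and 4.52), Wnt2 (4.64 and 4.17) and Wnt3 (4.17 and 4.32) were within the range. WNT receptors and co-receptors were above the range for 16 of 20 genes. Lgr4, a receptor for R-spondins, was high at 10.86 and 10.44, and the frizzled receptors Fzd5 (9.99 and 9.72) and Fzd7 (9.87 and 9.56) were just short of it. Lrp5 was within the range at 4.91 and 4.75.

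Transducers of WNT signals were above the range for 13 of 14 genes. Ctnnb1 (beta-catenin) read 13.35 and 13.34, and Csnk1a1, a kinase of its destruction complex, 12.41 and 12.48. Tcf7l1 (Tcf3), the repressive partner of beta-catenin in ES cells, was high at 10.28 and 10.26, while Lef1 was intermediate at 8.19 and 8.20 and Tcf7l2 read 5.86 and 5.09. Of 13 WNT target genes 11 were above the range (84.6%, against 65.5% of all genes). Ccnd1 (10.77 and 10.37) was high and Axin2 (8.57 and 8.76) intermediate. Of 13 antagonists 9 were above the range (69.2%), among them Notum (8.40 and 8.42) and Dkk1 (8.01 and 7.58).

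Notch pathway genes were above the range for 17 of 20 (85%, against 65.5% of all genes). The DNA-binding effector Rbpj was high (10.62 and 10.61), the ligand Jag1 was at 9.61 and 9.58 and Notch3 at 9.17 and 9.17. The effectors Hey2 (4.09 and 4.00) and Heyl (4.91 and 4.39) were within the range. Hedgehog genes were above it for 11 of 13. Ptch1, the receptor, was high at 10.42 and 10.35 and Gli2 read 9.66 and 9.62, while Shh read 7.16 and 7.08 and Ihh and Dhh passed the limit on 1 array each.

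Retinoid genes were above the range for 9 of 15 (60%, against 65.5% of all genes). The receptors Rarg (9.40 and 9.30) and Rxrb (9.77 and 9.57) were intermediate. Rarb (4.32 and 4.32), itself a retinoid-induced gene, and the retinoic acid producing enzyme Aldh1a1 (3.17 and 3.70) were within the range. In the insulin and IGF list, 16 of 19 were above the range. Igf2 was high at 12.18 and 12.02 with its brightest probe set, while its other probe set read 6.64 and 5.75. The binding protein Igfbp2 was high at 11.80 and 11.69. Igf1 read 5.58 and 4.91 and passed on 1 array only. Insulin itself (Ins2) read 6.11 and 5.75. Of 28 other growth factors and their receptors 24 were above the range. Pdgfa was high (10.11 and 9.84) and its receptor Pdgfra was within the range (4.70 and 4.70), and Kit (9.65 and 9.75) and its ligand Kitl (7.89 and 7.60) were both intermediate.

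Over whole families taken by gene name, 231 of 381 transcription factors were above the range (60.6%), 105 of 186 ligands (56.5%) and 98 of 146 receptors (67.1%), near the 65.5% of all genes. High genes were fewer, at 7.87% of transcription factors, 4.30% of ligands and 3.42% of receptors, against 15% of all genes. At 2 times the limit 176 transcription factors, 66 ligands and 72 receptors were left, which is 46.2%, 35.5% and 49.3% against 54.4% of all genes. As a share of the members above the range, ligands lost more under that limit than transcription factors or receptors did.

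Counts by family of transcription factors are set against the 65.5% of all genes above the range and the 54.4% over 2 times the limit; most families are small, and no test was made between them. Klf factors were above the range for 15 of 16 genes with 6 high, E2f factors, which drive S phase genes, for 8 of 8, Tead factors for 4 of 4 and Id factors for 4 of 4. LIM homeobox genes were above it for 1 of 12, Gata factors for 2 of 6, T-box factors for 5 of 14, tissue bHLH factors for 11 of 30 and Hox genes for 14 of 33. None of the Hox, T-box, LIM homeobox, Gata or tissue bHLH genes was high. Over 2 times the limit 13 Klf, 7 E2f, 0 LIM homeobox, 1 Gata, 2 T-box, 7 tissue bHLH and 6 Hox genes were left. Hoxa5 read 7.55 and 7.55, and Hoxc9 7.85 and 6.58, a gap of 1.26 between the arrays.

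The transcription factors with the brightest signals were Pou5f1, Sox2, Mycn, Sall4, Klf9, Etv5, Id1, Klf2, Smad4, Nr0b1, Id3 and Klf4. Mycn, the Myc family member best known from neural and embryonic cells, read 12.19 and 12.35, while Myc was intermediate at 9.32 and 9.19. Klf9 read 11.81 and 11.99 with the brightest of 7 probe sets, and 1 of its other probe sets was within the range at 4.32 and 4.58. The nuclear receptor Nr5a2, which acts beside Nr0b1 and Esrrb in ES cells, was high at 10.39 and 10.69. Sox11 (9.98 and 10.24) and Sox4 (10.07 and 10.06) were the other high Sox genes.

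The ligands with the brightest signals were Igf2, Mdk, Sema3f, Fgf4, Lefty1, Nodal, Gdf3, Pdgfa, Jag1, Sema4d, Bmp4 and Pdgfc. Mdk, the heparin-binding growth factor midkine, read 11.46 and 11.34, and Sema3f, a guidance protein, 11.06 and 11.24. Ephrins were above the range for 8 of 8 genes and Notch ligands for 5 of 5, all intermediate. Chemokines were above it for 12 of 33 and the EGF family for 3 of 10, with 5 and 2 left over 2 times the limit. Hbegf, the brightest of the EGF family, read 8.25 and 8.07.

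The receptors with the brightest signals were Itga6, Lgr4, Itgb1, Ptch1, Bmpr1a, Fzd5, Ddr1, Fzd7, Kit, Epha2, Il6st and Lifr. Itga6 (10.98 and 10.82) and Itgb1 (10.53 and 10.58) form a laminin receptor. Ddr1, a collagen receptor, read 9.78 and 9.75 and Epha2, an ephrin receptor, 9.75 and 9.62. Chemokine receptors were above the range for 7 of 20 genes, of which 2 were left over 2 times the limit.

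**Figure D4:**
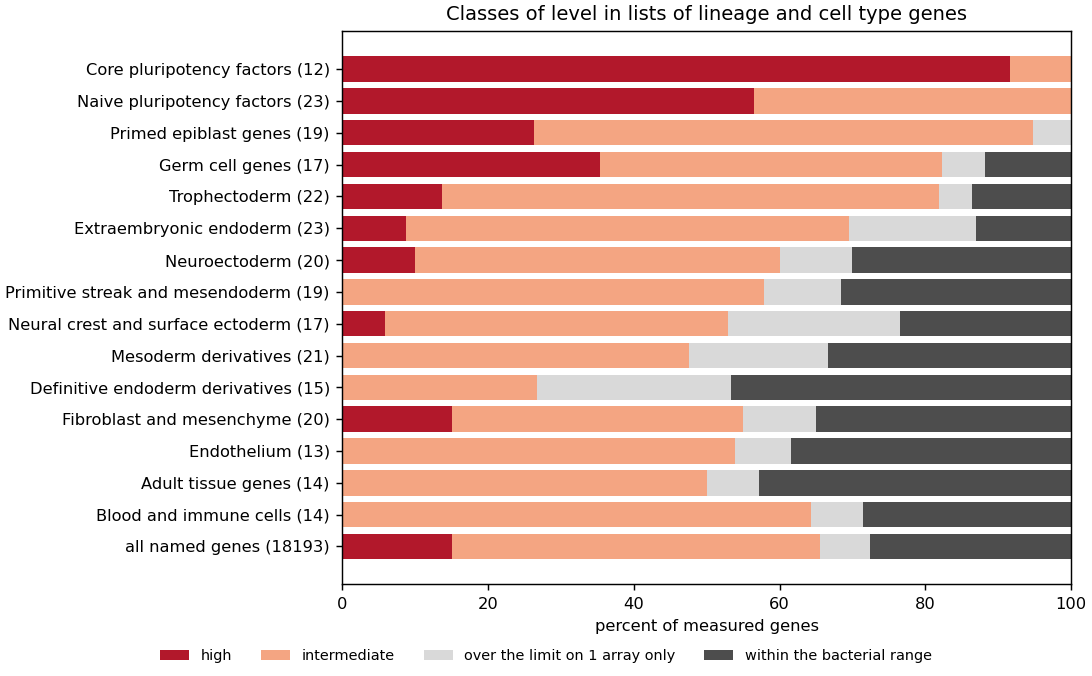
Percent of measured genes in each class of level, for 15 lists of lineage and cell type genes and for all 18193 named genes, with the number measured in parentheses. The core and naive pluripotency lists have 0 genes within the bacterial range. These lists and the primed, germ cell, trophectoderm and extraembryonic endoderm lists have larger shares above it than all named genes do. The other lists shown have smaller shares, from 64.3% for blood and immune cells to 26.7% for definitive endoderm derivatives.

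Lineage genes were above the range for 86 of 143 (60.1%), near the 65.5% of all genes. Of the 143, 12 were high (8.39%, against 15% of all genes), and 62 were over 2 times the limit (43.4%, against 54.4%). Genes of the primitive streak and mesendoderm were above the range for 11 of 19 (57.9%), 0 of them high. The WNT-induced factor Sp5 read 8.19 and 8.03 and Evx1 7.85 and 7.43, and Mixl1 and Eomes are given above. Mesp1, a factor of early cardiac mesoderm, read 6.88 and 6.46. Lhx1 (4.95 and 4.70), Hoxb1 (4.17 and 3.70), Cer1, Gsc and Wnt3 were within the range.

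Mesoderm derivatives were above the range for 10 of 21 genes (47.6%, against 65.5% of all genes). Over 2 times the limit 2 were left (9.52%, against 54.4%). Tcf15, a bHLH factor of somites that is also found in epiblast cells, read 9.53 and 9.54, well apart from the next, Runx1 at 6.04 and 6.63. The embryonic globins Hbb-y (4.46 and 4.17) and Hba-x (5.00 and 4.17) and the muscle factor Myf5 (3.46 and 3.46) were within the range. Definitive endoderm derivatives were above it for 4 of 15 (26.7%, against 65.5% of all genes). These were Cdx2 (7.77 and 7.54), Hnf4a (6.41 and 6.07), Ttr (6.32 and 5.75) and Pdx1 (5.88 and 5.46). Alb, Afp (4.39 and 4.70) and Foxa3 (4.52 and 4.58) were within the range.

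Neuroectoderm genes were above the range for 12 of 20 (60%, against 65.5% of all genes). Over 2 times the limit 7 were left (35%, against 54.4%). Nefl, a neurofilament protein (10.12 and 10.16), and Sox11 were high, which is 10% of the list against 15% of all genes. Nes read 7.91 and 8.07 and Pax6 7.09 and 7.02, while Dcx (4.58 and 4.32), Neurog2 (4.25 and 4.32) and Zic1 (3.32 and 3.91) were within the range. Neural crest and surface ectoderm genes were above it for 9 of 17 (52.9%). Tfap2c, a factor shared with trophectoderm and germ cells, was the high one, at 10.35 and 10.54, and Pax7 (4.70 and 4.25) was within the range.

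Trophectoderm genes were above the range for 18 of 22 (81.8%, against 65.5% of all genes), and 17 were left over 2 times the limit (77.3%, against 54.4%). The keratins Krt8 (12.54 and 12.22) and Krt18 (12.33 and 12.11) were high, Cdx2 and Eomes were intermediate, Gata3 (5.75 and 4.91) passed on 1 array, and Elf5 (4.17 and 4.39) and Tpbpa (3.91 and 3.70) were within the range. Extraembryonic endoderm genes were above it for 16 of 23 (69.6%, near that of all genes), and 9 were left over 2 times the limit (39.1%, below that of all genes). Its high members were the matrix genes Sparc (10.73 and 10.85) and Lamb1 (10.39 and 10.31), and Lamc1 (9.19 and 9.32) and Col4a1 (8.71 and 8.85) were intermediate. The defining factor Gata6 read 5.00 and 5.13 and Pdgfra, a surface marker of primitive endoderm, was within the range. Gata4, chosen after its values were seen, read 5.13 and 4.64.

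Germ cell genes were above the range for 14 of 17 (82.4%, against 65.5% of all genes), and 6 were high (35.3%, against 15%). Ifitm1 (12.56 and 12.48), Ifitm3 (11.94 and 11.98), Tex19.1 (10.60 and 10.68) and Dppa3 (10.57 and 10.48), which ES cells are known to share with germ cells, were among them. Tdrd1 (4.32 and 4.25) and Tex101 (3.91 and 4.25) were within the range.

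Markers of cells that a culture could hold beside ES cells gave counts below that of all genes: 34 of 61 were above the range (55.7%), and 16 (26.2%) were left over 2 times the limit. Fibroblast and mesenchyme genes were above the range for 11 of 20 (55%), and 3 were high (15%, the share of all genes). Their high members were Vim (11.77 and 11.74), the matrix protein Fn1 (11.24 and 11.27) and Tagln (10.74 and 10.98), while Col3a1 (4.70 and 4.39), Col6a1 (4.32 and 4.52) and Dcn (4.64 and 4.17) were within the range. Blood and immune genes were above the range for 9 of 14 (64.3%, near the 65.5% of all genes), with a highest mean of 6.91. Csf1r (7.03 and 6.79) and Cd68 (7.01 and 6.79) were the brightest, and 3 of the 14 were left over 2 times the limit. Itgam (3.81 and 3.81), Adgre1 (4.39 and 4.32) and Ms4a1 (4.52 and 3.91) were within the range. Endothelial genes were above it for 7 of 13 (53.85%), with Eng (8.11 and 8.07) and Pecam1 (7.45 and 7.62) the brightest. Cdh5 (4.91 and 3.81) and Emcn (4.25 and 3.46) were within the range. Adult tissue genes were above it for 7 of 14 (50%, against 65.5% of all genes). Of the 14, 2 were left over 2 times the limit (14.3%, against 54.4%), Acta1 (8.99 and 8.31) and Mbp (6.61 and 6.79). Adipoq (3.81 and 4.17) and Gcg (3.70 and 3.32), hormones of fat and of the pancreas, were within the range. The part of other cells in any of these values was not tested.

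Chromatin and growth genes were above the range for 122 of 135 (90.4%, against 65.5% of all genes), and 54 were high (40%, against 15%). Enzymes and readers of DNA methylation were high for 8 of 13 (61.5%). Trim28, a co-repressor of retroelements, read 13.51 and 13.63, Dnmt3l 11.27 and 11.25, and Uhrf1, which guides maintenance methylation, 11.16 and 11.08. Tet3 was within the range at 4.64 and 4.17. Polycomb and trithorax genes were above it for 26 of 27 (96.3%) and high for 14 (51.9%). Among the high ones were Mtf2 (12.56 and 12.46), Eed (12.46 and 12.39), Ash2l (12.26 and 12.27) and Kdm1a (11.89 and 11.75).

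Cell cycle drivers were high for 20 of 28 genes (71.4%, against 15% of all genes), and inhibitors for 0 of 14. Pcna (13.79 and 13.75) and the replicative helicase subunits Mcm7 (13.10 and 13.12), Mcm6 (12.59 and 12.66) and Mcm5 (12.71 and 12.52) were the brightest drivers. The meiotic cyclin Ccna1 was within the range at 4.09 and 3.91. Of the inhibitors, 13 of 14 were intermediate, with Cdkn1a (p21) at 9.77 and 9.60 and Cdkn1c at 9.04 and 8.76. Immediate early genes were above the range for 18 of 20 (90%) and high for 2 (10%), against 65.5% and 15% of all genes. Ier2 (10.72 and 10.60) and Ccn2 (9.92 and 9.89) were the high ones, and Fosb (3.91 and 3.70) was within the range. Imprinted genes were above the range for 24 of 27 (88.9%) and high for 9 (33.3%). Gnas (12.03 and 12.08), Grb10 (11.83 and 11.82) and Mest (11.68 and 11.66) were high beside Igf2. The Gnas value came from a probe set whose suffix marks it as shared between transcripts. Only 1 of the 5 Gnas probe sets was above the range, so that level is uncertain.

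Known traits of the line were looked up among these values. E14Tg2a is known as a male line that lacks a functional Hprt gene. Hprt, chosen after its value was seen, read an intensity of 47 on both arrays, a log2 of 5.55, which is over the limit but not over 2 times the limit. Of the Y-linked genes, Eif2s3y was high at 10.24 and 10.16, while its other probe set was within the range at 3.00 and 3.585. Uty read 7.83 and 7.68 with its brightest probe set, and 2 of its 4 probe sets were above the range. Sry read 6.27 and 5.39 with its brightest probe set and 3.00 and 3.46 with its other one. Kdm5d (4.00 and 3.91) and Usp9y (4.17 and 3.70) were within the range. Xist, the RNA of the inactive X chromosome, read 9.22 and 9.62 with a probe set whose suffix marks it as shared between transcripts, and its other probe sets read 3.46 and 3.91, and 3.59 and 3.81, within the range. No level is given for Xist on that account. Tsix, its antisense partner, read 4.70 and 4.25.

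The brightest signals of all genes came from translation and the cytoskeleton. Eef1a1, a translation elongation factor, read 14.53 and 14.63, Actb 14.52 and 14.60 and the actin-binding peptide Tmsb10 14.37 and 14.43. The remaining 12 of the first 15 were 9 genes for ribosomal proteins (Rps2, Rpl7a, Rpl41, Rps29, Rpl13a, Rps28, Rpl37a, Rps3a1 and Rps14), the chaperones Hspa8 and Hsp90aa1, and Tpt1. Their means lay between 14.18 and 14.58.

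The control arrays were close but not on one scale. The median intensity of the probe sets was 46 on replicate 1 and 37 on replicate 2, and 57.7% and 52.5% of probe sets passed the limit. Across 45037 probe sets the arrays had a Pearson correlation of 0.989, and across the genes within the range it was 0.707. The median SD between the arrays was 0.07 for high genes, 0.14 for intermediate genes and 0.17 for genes within the range. The log2 signal at the 3′ end minus that at the 5′ end was 0.22 and 0.32 for Actb, −0.05 and −0.05 for Gapdh and 1.32 and 1.30 for Tfrc.

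Of the 11920 genes above the range, 71 (0.596%) differed by 2-fold or more between the arrays, all of them higher on replicate 1, and 73.9% of the 11920 were higher on replicate 1. This direction depended on the scaling. After quantile normalization 15 were higher on replicate 1 and 11 on replicate 2, and after a shift of both arrays to the same median 8 and 17. Golt1b, a Golgi transport protein, read 7.57 and 5.91, and Otub1, a deubiquitinase, 9.44 and 8.08. Both were higher on replicate 1 by over 2-fold under each of the 3 scalings, at 1.66, 1.48 and 1.35 for Golt1b and 1.36, 1.27 and 1.05 for Otub1. Among genes lower on replicate 1, Npc1l1 read 5.25 and 6.21 and Nol6, a nucleolar protein, 8.41 and 9.13. The differences of Sall4 (0.82, 0.76 and 0.50) and Id1 (0.54, 0.48 and 0.23) kept their sign under the same scalings, while that of Nanog was 0.10, 0.07 and −0.21. Sox2 was at 0.01, −0.03 and −0.30 and Nodal at 0.04, −0.04 and −0.28, so that with a shared median both had wider gaps than Id1.

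**Figure D5:**
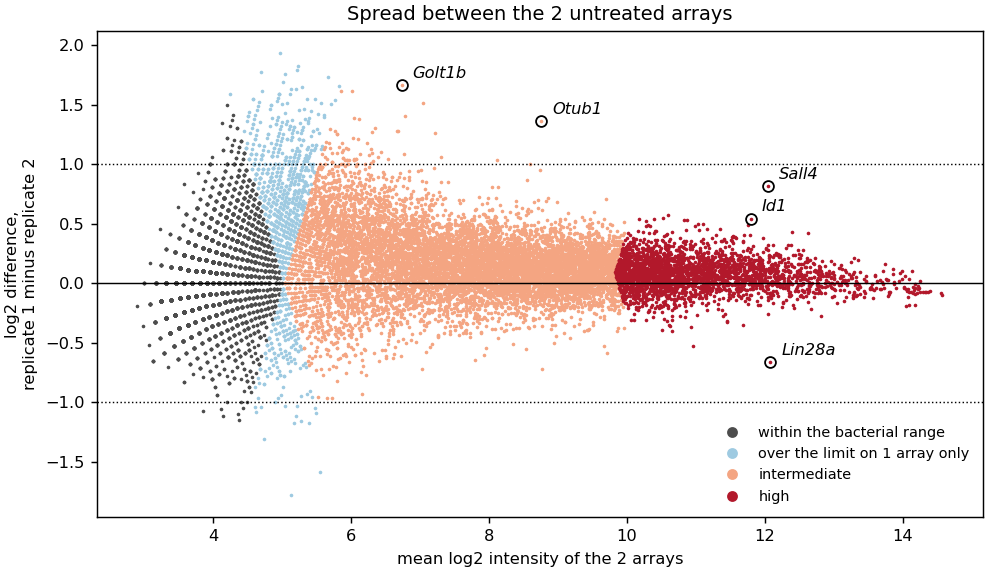
Log2 difference between the control arrays (replicate 1 minus replicate 2) against their mean for 18193 genes, coloured by class, with dotted lines at 2-fold. As deposited, the 71 genes above the range and past 2-fold all lie above the upper line, and the circled Sall4, Id1 and Lin28a stand out among high genes.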

How the data were processed

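RNA was purified on silica columns, primed with oligo-dT and labelled with biotin, per the labels' protocols. The authors deposited 1 intensity per probe set and array, linear and in whole numbers, for 45101 probe sets. RMA, which corrects background, normalizes and summarises probe sets, is named in the submitters' processing notes without a version; for its settings nothing is given in the sources used here. The design text names the smaller 430A array, while the probe sets are those of the whole-genome version. The log2 of each deposited intensity was taken with no further normalization. Values are whole numbers, so dim ones move in coarse steps. RMA commonly ends in log2 values with like distributions; how these linear values, with medians of 46 and 37, were made from it is not stated. The arrays carry no detection call, and their number limits the precision.

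The 64 control probe sets were set aside. Of the other 45037, 34945 have 1 gene symbol in the platform annotation, 932 several and 9160 none; genes were named only from the first kind, which gave 18193 genes. Classes were set as described with the results, and the classifier was tested on simulated data. Promoter windows were matched for protein-coding genes, without those on chromosome 18. No test between groups was made, because only 1 group is described. Each mean ± SD is over 2 arrays. Python 3.11.15, numpy 2.4.6 and pandas 2.3.3 were used.

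The 50 gene lists held 899 entries, of which 832 were measured (710 different genes), and 52 families taken by symbol held 713 genes; the other entries were not analysed here. The arrays, markers and lists were chosen with earlier results of these data known. Named genes were the 5 markers, every core pluripotency factor above the range, and every above-range ligand, receptor and Smad of the BMP and Activin/Nodal pathways. Every other list or family gave up to 4 genes with the highest means and up to 3 within the range, in alphabetical order. The 15 highest genes, the 12 highest transcription factors, ligands and receptors, and the 12 largest differences each way between the arrays completed the rule. Dnmt3a, Otx2, Fgf5, Inhba, Socs3, Hprt, Olig2 and Gata4 were named after their values were seen. Alternatives were 1 array alone, quantile normalization, a shift to the same median, the median of a gene's probe sets, no shared probe sets, and other limits.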

Additional observations from a re-analysis of the deposited data

How the results depend on the processing

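No paired analysis was possible because only 1 group is described. Counts above the bacterial range stayed within 1.5 times of their values under every alternative run for all genes, transcription factors, receptors and the summed pluripotency, signalling and chromatin lists. With 1 array left out, genes above the range numbered 12127 to 12974, genes within it 5219 to 6066 and high genes 2827 to 2850, and differences between the arrays have no value. Quantile normalization and the shift to the same median cannot change a class, since the limits move with each array. Setting the limit at the 90th percentile of the bacterial probe sets left 1769 genes within the range, and put 130 lineage genes and 161 ligands above it. A limit 1 log2 unit higher left 16 genes of other cell types and 66 ligands. High genes numbered 1580 by the median of a gene's probe sets, 1281 at the 95th percentile and 6673 at the 75th. Genes with a 2-fold difference between the arrays numbered 26 after quantile normalization, 25 after the shift, 39 by the median of probe sets, 11 with the higher limit, 295 with the lower one and 373 with no filter on low values.

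Of 545 named genes, 83.9% kept their class by the median of probe sets, 88.6% with the higher limit, 77.2% with the lower one, and 97.8% and 97.6% with 1 array left out. Among levels of single genes and counts of single lists, 588 values moved by more than the SD between the arrays or by over 1.5 times, and 4306 did not. Of 9010 genes with over 1 probe set, 3844 (42.7%) had some probe sets above the range and some not. A gene was classed by its brightest probe set, so this limits statements that a gene is above the range or high. By the median of a gene's probe sets, 10796 genes were above the range and 6114 within it. Among the mixed genes are Bmpr2, Tfcp2l1, Tgfbr2 and Acvr1c (1 of 3 probe sets above the range) and Nedd4l (1 of 6). Stat3 (2 of 4) and Eed, Lgr4 and Tgfbr3 (1 of 2) are mixed too.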
